A study of Sus scrofa with 14 samples.

Results

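The genes described here are 44 pig genes of the cell cycle and of DNA replication, listed by symbol to cover the copying of DNA, the supply of nucleotides, the entry into S phase, mitosis and the inhibitors of these steps. A listed gene was included where its symbol names a row of the deposited count table, which held for 37 of the 44 genes among 25880 rows. The symbols RRM2, MKI67, CCNA2, CCNE1, CDK1, AURKA and BUB1 name no row there; rows for CCNE1, CDK1 and BUB1 were found by gene identifier through the RefSeq annotation and are given apart, and the other 4 genes were not analysed here. Of the 37 genes found, 36 had at least 10 reads summed over the libraries and were tested. The row of MCM5, a subunit of the replicative helicase, had 0 reads in all 14 libraries and gives no level.

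Polyadenylated RNA of pig knee tissue and of cells grown from it was sequenced in 14 libraries. The design set passaged meniscus cells against the tissue of their zone, the outer against the inner zone of the meniscus, and each zone against cartilage. The groups were outer zone cells at passage 3 (outer P3 cells, n = 2), inner zone cells at passage 3 (inner P3 cells, n = 3), outer zone tissue (n = 3), inner zone tissue (n = 3) and femoral cartilage (n = 3). Meniscus tissue came from the medial meniscus and cartilage was taken at full thickness, all from skeletally mature female pigs, 2 to 3 years old, of an abattoir, with no transgene or tested agent in any group. Tissue explants spent 3 days in serum-containing medium before they were frozen, so that no group is fresh tissue. P3 cells were released by enzymes and grown in dishes in the same kind of medium, passaged near confluence and collected at the third passage. RNA of tissue was extracted with TRIzol after pulverizing and then on a column, and RNA of cells on a column alone, so that passaging and extraction cannot be told apart. Libraries are called by the number in their labels. By the study's methods the explants of both zones came from the same 3 menisci, a single one per zone and meniscus, while P3 cells came from donors not matched to the tissue. Which number stands for which meniscus is not given in the sources used here, and the numbers of the zones match only in part (2, 3 and 6 in outer tissue, 2, 3 and 5 in inner tissue), so that the main comparisons treat the libraries as unpaired.

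A dividing cell moves from G1 into S phase, in which its DNA is copied, and then through G2 into mitosis. Cyclin D with CDK4 and cyclin E with CDK2 release E2F transcription factors from the RB1 protein in G1, E2F factors then switch on genes of DNA replication, and genes of mitosis are switched on later, in G2. Cells of mature meniscus and cartilage divide rarely in the joint, whereas the same cells proliferate once they are isolated and passaged. In bulk RNA a lower level in a group can come from fewer dividing cells or from less of the RNA in each, and these cannot be told apart.

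Promoter sequences were searched for letters tied to these phases. In human and mouse cells, mitotic genes are known to carry the cell cycle genes homology region (CHR) and CCAAT boxes, and replication genes to carry E2F sites. In the window of 250 bases before and 50 bases from the RefSeq start site on (Sscrofa11.1), the CHR letters TTTGAA were found on either strand at 10 of 16 mitotic genes (62.5%), 1 of 7 replication genes (14.3%) and 13.8% of 19556 protein-coding genes. The letters CCAAT were found on either strand at 12 of 16 mitotic genes (75%), 5 of 7 replication genes (71.4%) and 35.2% of all genes. An E2F match, taken as TTTCCCGC, TTTCGCGC, TTTGCCGC or TTTGGCGC on either strand, was found at 1 of 16 mitotic genes (6.25%), 2 of 7 replication genes (28.6%) and 3.31% of all genes. Matches of different motifs, and of the 4 forms of the E2F letters, can overlap each other. A match of letters is a description and neither a bound site nor a cause. The stretches of 6 mitotic genes are shown to set the CHR and CCAAT letters beside the levels of the same genes, and that of MCM6 to show the E2F letters of a replication gene. Each runs 5′ to 3′ on the strand of its gene and lies wholly before the start site, with the matches in capitals (CHR, TTTGAA or its complement TTCAAA, and CCAAT or its complement ATTGG, and for MCM6 the E2F letters only). UBE2C is from chr17:48018283-48018402 (plus strand), CDC20 from chr6:167890588-167890687 (minus), TOP2A from chr12:22001120-22001279 (plus), CDKN3 from chr1:183792487-183792596 (plus), CCNB1 from chr16:47338139-47338238 (plus), CCNB2 from chr1:112942219-112942318 (minus) and MCM6 from chr15:15923498-15923597 (plus).
UBE2C: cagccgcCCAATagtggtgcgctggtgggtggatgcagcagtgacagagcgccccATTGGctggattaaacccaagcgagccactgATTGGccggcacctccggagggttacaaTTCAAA
CDC20: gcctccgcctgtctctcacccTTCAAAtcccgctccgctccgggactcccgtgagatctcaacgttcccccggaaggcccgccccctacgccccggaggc
TOP2A: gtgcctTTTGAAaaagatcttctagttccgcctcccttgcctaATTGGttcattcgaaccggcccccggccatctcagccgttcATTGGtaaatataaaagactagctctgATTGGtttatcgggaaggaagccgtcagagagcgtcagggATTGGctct
CDKN3: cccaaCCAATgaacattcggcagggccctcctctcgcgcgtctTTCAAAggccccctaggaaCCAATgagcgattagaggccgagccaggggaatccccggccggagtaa
CCNB1: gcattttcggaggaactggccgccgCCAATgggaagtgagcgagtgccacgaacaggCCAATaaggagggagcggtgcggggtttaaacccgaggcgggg
CCNB2: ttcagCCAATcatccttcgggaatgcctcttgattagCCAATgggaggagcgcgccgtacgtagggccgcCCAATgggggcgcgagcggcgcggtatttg
MCM6: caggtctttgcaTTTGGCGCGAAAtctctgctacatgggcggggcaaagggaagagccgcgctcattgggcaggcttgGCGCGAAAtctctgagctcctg
The spacing of the CCAAT letters within the stretches shown differed between genes. They began 75 and 43 bases before the start of CCNB1, 95, 63 and 30 bases before that of CCNB2, and 113, 65 and 34 bases before that of UBE2C, so that neighbours began 31 to 33 bases apart in all of these pairs but the 2 farther ones of UBE2C, which began 48 bases apart. In TOP2A the steps between neighbours were 41, 27 and 40 bases and in CDKN3 57 bases. Further matches lie in the search window outside the stretches shown. The whole window held 5 CCAAT matches for UBE2C, 5 for TOP2A and 4 for CDKN3. For CDC20 it held 2 CCAAT and 2 CHR matches, for TOP2A 2 CHR matches and for CCNB2 1 CHR match. In MCM6 the pair of E2F matches 128 and 124 bases before the start overlap on opposite strands, and a further match began 62 bases before it.

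Library totals ran from 24440213 to 43304412 reads on genes. The summed level of 6 detected cartilage markers (COL2A1, ACAN, COL9A1, COL11A1, MATN3 and SOX9) was 1793 to 1900 CPM (reads on the gene, scaled to a common library size) in outer P3 cells, 3867 to 5010 in inner P3 cells, 2603 to 10290 in outer tissue, 5039 to 28790 in inner tissue and 34600 to 92460 in cartilage. The sum does not stand for each marker. In P3 cells against tissue of their zone 4 of the 6 had log2 fold changes below 0 and 2 above 0, in both zones. They ran from −8.605 to 5.018 in the inner and from −8.295 to 3.723 in the outer zone. Blood vessel markers set the outer tissue libraries apart from each other. The sum of 8 endothelial markers was 629 CPM in outer tissue 3, 242 in outer tissue 6 and 10.9 in outer tissue 2, against 3.61 to 4.83 in inner tissue, 3.44 to 4.70 in cartilage and 4.51 to 15.1 in P3 cells. The sum of 7 macrophage and leukocyte markers was 104, 132 and 69.5 CPM in outer tissue 3, 6 and 2, against 47.9 to 77.9 in inner tissue, 56.9 to 78.8 in cartilage and 22.6 to 36.6 in P3 cells.

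Mitotic genes were higher in inner P3 cells than in inner tissue. A gene is called where edgeR's quasi-likelihood test gave an adjusted p (Benjamini-Hochberg over 15707 genes) under 0.01 and the log2 fold change was over 1 in size. By this rule 17 of the 36 tested genes (47.2%) were called higher in inner P3 cells than in inner tissue, against 13.6% of all genes tested, and 0 were called lower, against 12.1%. DESeq2 also gave 17 and 0. An unadjusted edgeR p under 0.05 in either direction was found for 25 of the 36 genes, against 9108 of all 15707. Of the 17 genes, 13 belong to mitosis, and the others are CCND1 and the inhibitors CDKN1A, CDKN2B and RB1. The median log2 fold change was 2.40 over the 16 mitotic genes and 1.14 over all 36, against 0.015 over all genes tested.

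In outer P3 cells set against outer tissue, 2 of the 36 genes (5.56%) were called higher, against 8.36% of all genes, and 2 (5.56%) were called lower, against 8.3%, both shares below those of all genes. CDKN1A and RB1 were the higher ones and PCNA and MCM7 the lower ones. None of the 16 mitotic genes was called in the outer zone by edgeR, and DESeq2 called 1, KIF20A. An unadjusted edgeR p under 0.05 was found for 6 of the 16, a smaller share than the 7605 of all 15707 genes. The median log2 fold change of the 16 mitotic genes was 0.88, against −0.012 over all genes tested. Every library of inner P3 cells stood above every library of inner tissue for 21 of the 36 genes (58.3%), including all 16 mitotic ones, and below for 4, against 33.4% and 29.2% of all genes. In the outer zone 12 genes (33.3%) stood above without overlap, 7 of them mitotic, and 7 (19.4%) below, against 32.1% and 29.3% of all genes.

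**Figure D1:**
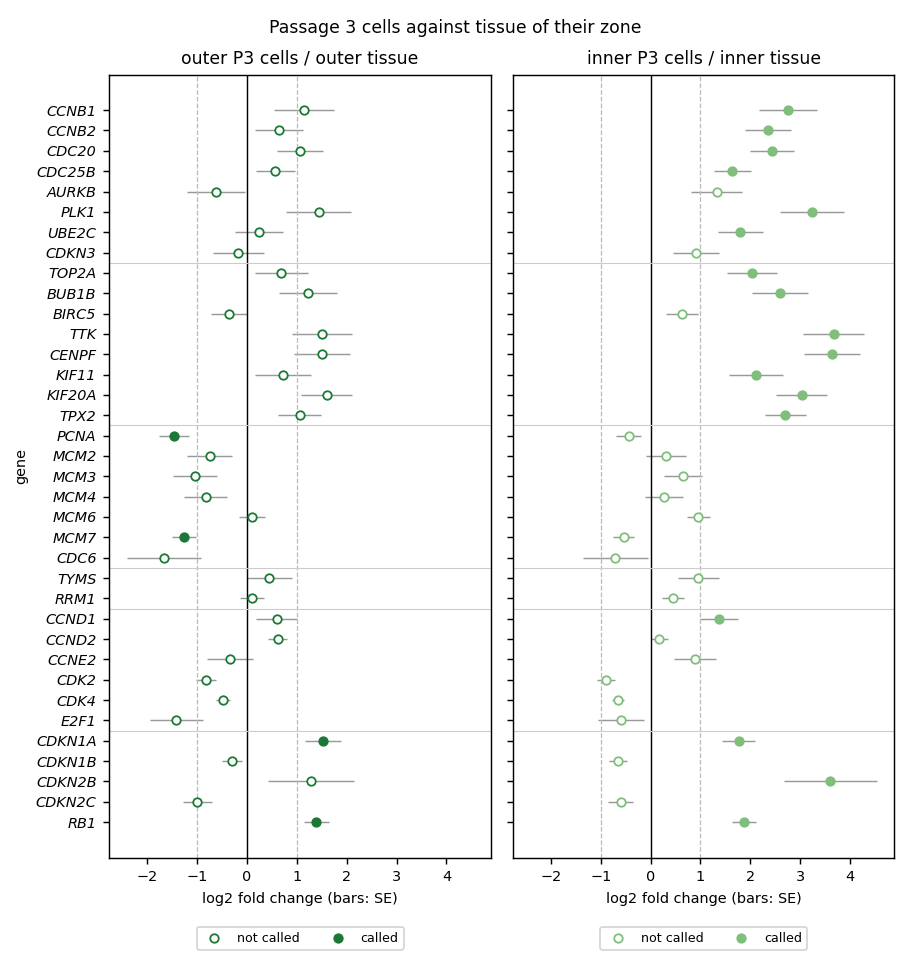
Log2 fold change with its standard error (bars) of the 36 tested genes, for outer P3 cells over outer tissue (left) and inner P3 cells over inner tissue (right). Filled points are called, dashed lines mark a log2 fold change of 1 in size, and lines between rows separate the roles. The 16 mitotic genes at the top lie between 0.62 and 3.67 in the inner zone and between −0.63 and 1.60 in the outer zone.

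The mitotic cyclins CCNB1 and CCNB2 were among the genes called higher in inner P3 cells than in inner tissue. CCNB1, cyclin B1, which activates CDK1 at the entry into mitosis, had 58.7, 44.7 and 36.1 CPM in inner P3 cells, against 6.47, 7.29 and 6.98 CPM in inner tissue. The groups were far apart, and CCNB1 was higher by 2.75 ± 0.58 on the log2 scale (SE, edgeR adjusted p = 0.00158). In the outer zone it had 24 and 39.4 CPM in P3 cells, against 3.97, 11.4 and 27.6 CPM in outer tissue 2, 3 and 6. There outer tissue 6 lay between the cell libraries, and the log2 fold change of 1.14 ± 0.60 did not pass the test (edgeR adjusted p = 0.147). CCNB2, the related cyclin B2, had 22.2, 15.5 and 11.3 CPM in inner P3 cells, against 2.96, 3.15 and 3.40 CPM in inner tissue, a log2 fold change of 2.36 ± 0.46 (edgeR adjusted p = 0.000901).

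CDC20, an activator of the anaphase-promoting complex, had 53.9, 46.8 and 35.9 CPM in inner P3 cells, against 7.35, 7.25 and 10.7 CPM in inner tissue. All cell libraries were more than 3 times as high as any inner tissue library, and the log2 fold change was 2.43 ± 0.44 (edgeR adjusted p = 0.000545). In outer P3 cells CDC20 had 28.6 and 31.7 CPM, against 5.75, 12.4 and 24.8 CPM in outer tissue 2, 3 and 6. These groups did not overlap either, and the log2 fold change of 1.07 ± 0.46 did not pass the test (edgeR adjusted p = 0.084). PLK1, the polo-like kinase of mitotic entry, whose gene overlaps ERN2 on the other strand, with which it may share reads since the strand setting of the counting is not given, had 43.3, 32.0 and 23.2 CPM in inner P3 cells, against 3.06, 3.71 and 3.64 CPM in inner tissue (log2 fold change 3.24 ± 0.65, edgeR adjusted p = 0.00109). CDC25B, the phosphatase that activates CDK1, had 56.3, 43.4 and 27.3 CPM in inner P3 cells, against 8.81, 20.04 and 11.9 CPM in inner tissue, with less distance between the groups. Its log2 fold change was 1.64 ± 0.37 (edgeR adjusted p = 0.00236). UBE2C, the ubiquitin-conjugating enzyme that serves the anaphase-promoting complex, had 47.0, 36.0 and 29.4 CPM in inner P3 cells, against 9.37, 10.3 and 12.7 CPM in inner tissue (log2 fold change 1.80 ± 0.45, edgeR adjusted p = 0.00501).

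Among genes of the spindle and the chromosomes, TTK and CENPF had the largest log2 fold changes of the 36 genes in this comparison, with CDKN2B close behind. TTK, the kinase of the spindle checkpoint also known as MPS1, had 15.6, 11.5 and 7.39 CPM in inner P3 cells, against 0.976, 0.596 and 1.12 CPM in inner tissue (log2 fold change 3.67 ± 0.62, edgeR adjusted p = 0.000316). CENPF, a kinetochore protein, whose gene overlaps an unnamed locus on the other strand, had 70.0, 49.2 and 31.1 CPM in inner P3 cells, against 4.72, 2.91 and 4.46 CPM in inner tissue (log2 fold change 3.63 ± 0.56, edgeR adjusted p = 0.000163). Both genes were at least 6 times as high in the lowest cell library as in the highest tissue library. KIF20A, a motor protein of cytokinesis whose gene overlaps CDC23 on the other strand, had 82.2, 65.8 and 45.1 CPM in inner P3 cells, against 8.16, 6.62 and 8.80 CPM in inner tissue (log2 fold change 3.03 ± 0.51, edgeR adjusted p = 0.0003). TPX2, which activates Aurora A on the spindle, had 70.4, 51.0 and 38.7 CPM in inner P3 cells, against 8.03, 7.46 and 9.04 CPM in inner tissue (log2 fold change 2.70 ± 0.42, edgeR adjusted p = 0.000159). TOP2A, the topoisomerase that untangles chromosomes, had 115, 67.0 and 52.7 CPM in inner P3 cells, against 17.0, 13.4 and 26.8 CPM in inner tissue (log2 fold change 2.03 ± 0.50, edgeR adjusted p = 0.00438). The groups did not overlap for any of these 5 genes.

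In the outer zone the same 5 genes were higher in P3 cells by 0.68 to 1.59 on the log2 scale, with none called. KIF20A came closest, with 48.3 and 48.9 CPM in outer P3 cells, against 4.74, 15.3 and 27.9 CPM in outer tissue 2, 3 and 6 (log2 fold change 1.59 ± 0.52, edgeR adjusted p = 0.0266). TOP2A had 31.6 and 62.5 CPM in outer P3 cells, against 9.40, 30.4 and 47.9 CPM in outer tissue, with outer tissue 6 between the cell libraries (log2 fold change 0.68 ± 0.53, edgeR adjusted p = 0.331). BUB1B, the checkpoint kinase BubR1, and KIF11, the motor that separates the spindle poles, were called higher in inner P3 cells at log2 fold changes of 2.60 and 2.11, and had 1.22 and 0.72 in the outer zone without a call.

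AURKB, BIRC5 and CDKN3 were the 3 mitotic genes that were not called in the inner zone. AURKB, the kinase of the chromosomal passenger complex, had 13.4, 8.26 and 5.17 CPM in inner P3 cells, against 3.06, 2.94 and 4.70 CPM in inner tissue (log2 fold change 1.32 ± 0.52, edgeR adjusted p = 0.0467). BIRC5, survivin, a subunit of the same complex, had 19.5, 14.03 and 12.9 CPM in inner P3 cells, against 9.69, 9.63 and 10.8 CPM in inner tissue (log2 fold change 0.62 ± 0.32, edgeR adjusted p = 0.12). CDKN3, a phosphatase of cyclin-dependent kinases, had 9.88, 6.99 and 5.41 CPM in inner P3 cells, against 3.25, 4.27 and 4.31 CPM in inner tissue (log2 fold change 0.91 ± 0.46, edgeR adjusted p = 0.116). Their groups did not overlap, and the same 3 genes were those with a fold change below 0 in the outer zone, at −0.63, −0.36 and −0.17 on the log2 scale, none of them called.

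Replication genes that were called between P3 cells and tissue were lower in the cells. None of the 7 tested ones was called in inner P3 cells by edgeR or DESeq2, and their median log2 fold change was 0.26. An unadjusted edgeR p under 0.05 was found for 2 of the 7, a smaller share than the 9108 of all 15707 genes. In the outer zone 2 of 7 (28.6%) were called lower in P3 cells by either tool, against 8.3% of all genes by edgeR. The median was −1.05, and 4 of the 7 had an unadjusted edgeR p under 0.05, against 7605 of all 15707 genes. PCNA, the sliding clamp of DNA polymerases, had 15.03 and 14.89 CPM in outer P3 cells, against 26.5, 37.5 and 59.9 CPM in outer tissue 2, 3 and 6. Outer tissue 6 was about 4 times as high as either cell library, and PCNA was lower in P3 cells (log2 fold change −1.47 ± 0.30, edgeR adjusted p = 0.00191). In the inner zone it had 23.7, 18.7 and 16.2 CPM in P3 cells, against 23.4, 27.8 and 28.1 CPM in tissue, with overlap (log2 fold change −0.44 ± 0.25, edgeR adjusted p = 0.163).

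MCM2 to MCM7 form the ring of the replicative helicase, and their levels did not move as a block. MCM7, whose gene overlaps AP4M1 on the other strand, had 33.7 and 28.8 CPM in outer P3 cells, against 53.1, 78.8 and 92.2 CPM in outer tissue (log2 fold change −1.26 ± 0.24, edgeR adjusted p = 0.00142). In the inner zone MCM7 had 50.4, 39.3 and 34.3 CPM in P3 cells, against 53.8, 62.0 and 64.4 CPM in tissue. These did not overlap, but the log2 fold change of −0.54 ± 0.21 did not pass (edgeR adjusted p = 0.0446). MCM6 went the other way, with 71.3, 60.7 and 58.5 CPM in inner P3 cells, against 28.3, 32.1 and 37.7 CPM in inner tissue. Its adjusted p of 0.00426 (edgeR) passed, while the log2 fold change of 0.96 ± 0.23 fell short of 1. MCM6 is the member with the paired E2F letters shown above, and the replication gene with the only CHR match.

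MCM2, MCM3 and MCM4 lay between these. Their log2 fold changes were 0.31, 0.65 and 0.26 in the inner zone and −0.75, −1.05 and −0.83 in the outer zone, none called. CDC6, which loads the helicase onto origins, was low everywhere, at 0.620 and 0.455 CPM in outer P3 cells, 0.633, 0.392 and 0.453 in inner P3 cells, 0.446, 1.71 and 2.97 in outer tissue and 1.11, 0.420 and 0.880 in inner tissue. Its fold changes of −1.67 ± 0.74 in the outer and −0.71 ± 0.65 in the inner zone did not pass. TYMS and RRM1, which make thymidylate and the deoxynucleotides, were not called in either zone (log2 fold changes 0.96 and 0.45 in the inner zone, 0.44 and 0.10 in the outer zone). TYMS spread widely in inner P3 cells, at 107, 93.5 and 48.2 CPM, against 24.5, 60.04 and 43.3 CPM in inner tissue.

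The balance of mitotic and replication genes set cells and tissue apart in every library. The 16 mitotic genes summed to 309 and 437 CPM in outer P3 cells, 743, 544 and 395 in inner P3 cells, 75.7, 200 and 339 in outer tissue 2, 3 and 6, 102, 108 and 133 in inner tissue and 52.3 to 62.2 in cartilage. The 7 replication genes summed to 153 and 139 CPM in outer P3 cells, 216, 167 and 139 in inner P3 cells, 151, 243 and 339 in outer tissue, 136, 156 and 181 in inner tissue and 84.2 to 99.8 in cartilage. The ratio of the first sum to the second was thus 2.03 and 3.15 in outer P3 cells and 3.44, 3.26 and 2.85 in inner P3 cells, against 0.500 to 1.00 in outer tissue, 0.692 to 0.748 in inner tissue and 0.620 to 0.630 in cartilage. Outer tissue 6 had a mitotic sum within the range of the P3 cells, and its replication sum was the highest of all libraries. Read numbers of genes of different length enter these sums, so that only the same sums can be compared between libraries.

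**Figure D2:**
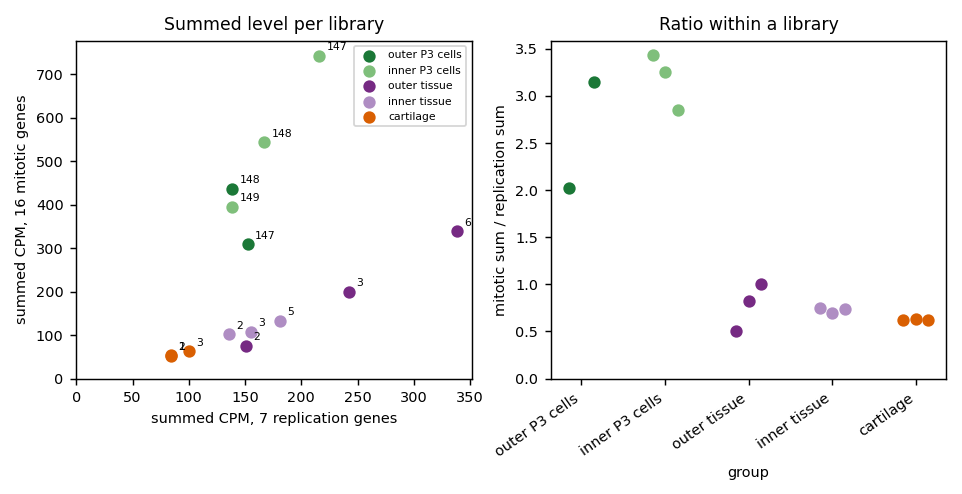
Left, summed CPM of the 16 mitotic genes against summed CPM of the 7 replication genes in each of the 14 libraries, with the replicate number beside each point. Right, the ratio of the sums by group; the 5 libraries of P3 cells lie between 2.03 and 3.44 and the 9 tissue and cartilage libraries between 0.500 and 1.00.

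Libraries of a group differed from each other in the levels of these genes. How many of all genes share these orders of libraries was not computed, so that they are not read as particular to the set. All 16 mitotic genes were highest in inner P3 cells 147 and lowest in inner P3 cells 149, with a median ratio of 1.85 between the pair. All 16 were higher in outer P3 cells 148 than in 147 (median ratio 1.503), while 6 of the 7 replication genes were lower in 148 (median ratio 0.760). In outer tissue all 16 mitotic and all 7 replication genes were lowest in library 2, and library 6 was the highest for 15 and 7 of them. The ratio of outer tissue 6 to 2 had a median of 4.91 over the mitotic genes, from 2.54 for CDC25B to 10.1 for BUB1B, and of 2.51 over the replication genes, from 1.74 for MCM7 to 6.66 for CDC6. The sum of the endothelial markers followed another order, being highest in outer tissue 3, and the sum of the leukocyte markers the same order as the cell cycle genes. Single leukocyte markers differed in this. CD68 and AIF1 had the order of the sum, whereas CD14 had 56.0, 53.8 and 52.8 CPM in outer tissue 2, 3 and 6, and CD163 had 0.0405, 3.24 and 1.47 CPM. The part of these cell types in the levels was not tested.

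**Figure D3:**
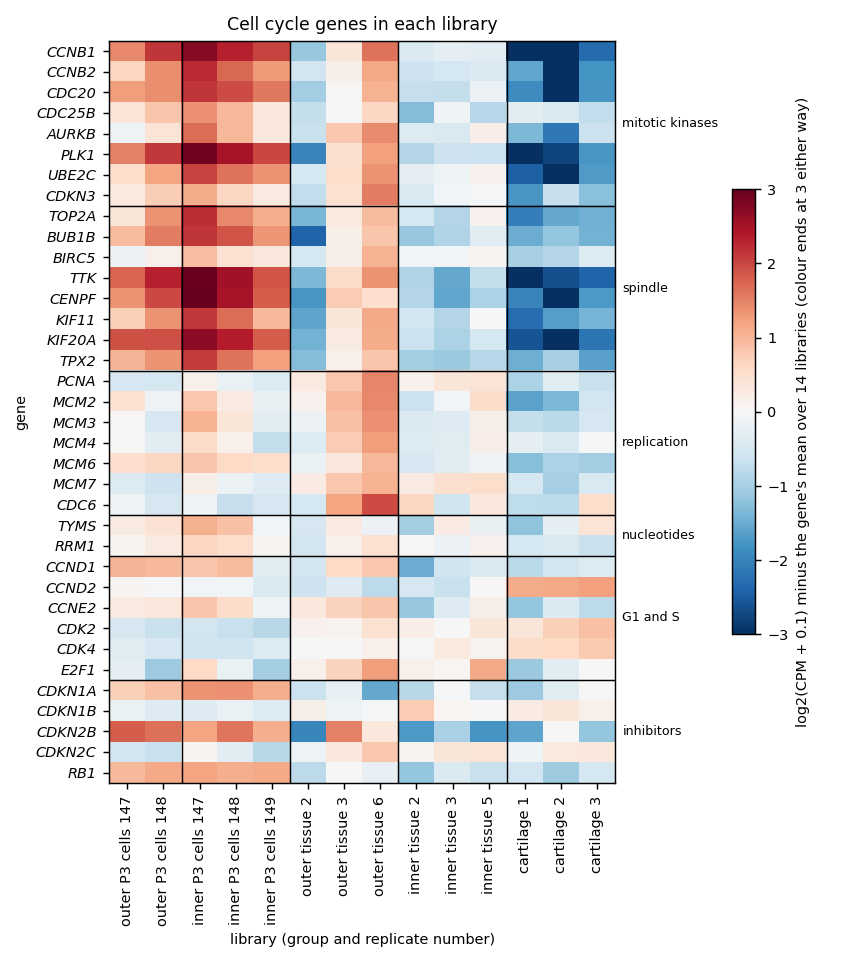
Heat map of log2(CPM + 0.1) of the 36 tested genes in the 14 libraries, each gene centred on its mean over the libraries, with genes grouped by role (rows) and libraries by group and replicate number (columns). Most mitotic genes are high in P3 cells and low in cartilage, and outer tissue 6 and 3 stand above outer tissue 2 for the mitotic and replication genes.

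The genes of G1 moved in different directions with passaging. CCND1, cyclin D1, had 59.7, 64.7 and 26.7 CPM in inner P3 cells, against 11.7, 21.8 and 24.6 CPM in inner tissue. The lowest cell library was just above the highest tissue library, and the log2 fold change of 1.38 ± 0.38 was called (edgeR adjusted p = 0.00886). In the outer zone CCND1 had 67.4 and 64.9 CPM in P3 cells, against 22.5, 50.6 and 58.4 CPM in tissue (log2 fold change 0.59 ± 0.41, edgeR adjusted p = 0.274). CDK4, the partner kinase of cyclin D, had 101, 100.2 and 114 CPM in inner P3 cells, against 148, 185 and 165 CPM in inner tissue, and 118 and 107 CPM in outer P3 cells, against 153, 152 and 169 CPM in outer tissue. Cells lay below tissue in every library, with log2 fold changes of −0.66 ± 0.12 in the inner zone (edgeR adjusted p = 0.000534) and −0.48 ± 0.13 in the outer zone (edgeR adjusted p = 0.0125), both short of a 2-fold change.

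CDK2, the partner kinase of cyclin E, likewise lay below tissue in all cell libraries. It had 5.83, 5.35 and 4.82 CPM in inner P3 cells, against 9.85, 8.69 and 11.0 CPM in inner tissue (log2 fold change −0.89 ± 0.18, edgeR adjusted p = 0.00118). Outer P3 cells had 6.06 and 5.37 CPM of it, against 9.36, 9.32 and 11.8 CPM in outer tissue (log2 fold change −0.83 ± 0.20, edgeR adjusted p = 0.00643). CCND2, cyclin D2, whose gene overlaps an unnamed locus on the other strand, changed by 0.17 ± 0.17 in the inner and 0.61 ± 0.19 in the outer zone. E2F1, the founding E2F factor, had 10.1, 5.74 and 3.19 CPM in inner P3 cells, against 7.35, 6.90 and 14.6 CPM in inner tissue, and 5.42 and 3.06 CPM in outer P3 cells, against 7.37, 10.7 and 15.9 CPM in outer tissue. The groups overlapped in the inner zone only, and neither fold change passed (−0.60 ± 0.46 and −1.42 ± 0.54 on the log2 scale, edgeR adjusted p = 0.289 and 0.0508). CCNE2, cyclin E2, whose gene overlaps INTS8 on the other strand, was at 1.03 to 2.09 CPM in P3 cells and at 0.455 to 2.07 CPM in meniscus tissue, with no call.

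Some inhibitors of the cell cycle were higher in P3 cells as well. CDKN1A, the p21 protein, which blocks cyclin-dependent kinases, had 81.0, 82.0 and 67.4 CPM in inner P3 cells, against 17.6, 30.7 and 19.5 CPM in inner tissue (log2 fold change 1.77 ± 0.33, edgeR adjusted p = 0.000675). Outer P3 cells had 51.9 and 58.7 CPM of it, against 20.3, 26.5 and 10.8 CPM in outer tissue (log2 fold change 1.53 ± 0.36, edgeR adjusted p = 0.00465). Cells lay above tissue throughout, and within outer tissue CDKN1A was lowest in library 6, where most cell cycle genes were highest. RB1, the retinoblastoma protein that holds E2F, whose gene encloses LPAR6 on the other strand, had 22.4, 20.9 and 21.7 CPM in inner P3 cells, against 4.33, 7.29 and 6.10 CPM in inner tissue (log2 fold change 1.87 ± 0.24, edgeR adjusted p = 3.42e-05). In outer P3 cells it had 19.5 and 21.8 CPM, against 5.63, 9.72 and 8.25 CPM in outer tissue (log2 fold change 1.39 ± 0.25, edgeR adjusted p = 0.000917). RB1 and CDKN1A were the only 2 of the 36 genes called in both zones.

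CDKN2B, the p15 inhibitor of CDK4, whose gene overlaps an unnamed locus on the other strand, rested on few reads in tissue. It had 1.14, 1.55 and 1.05 CPM in inner P3 cells (36, 67 and 44 reads), against 0.0650, 0.175 and 0.0607 CPM in inner tissue (2, 5 and 2 reads). The log2 fold change was 3.61 ± 0.94 (edgeR adjusted p = 0.00607). In outer P3 cells it had 1.81 and 1.60 CPM, against 0.0405, 1.45 and 0.579 CPM in outer tissue 2, 3 and 6, where library 3 came near the cells (log2 fold change 1.28 ± 0.86, edgeR adjusted p = 0.255). CDKN1B, the p27 protein, and CDKN2C, the p18 inhibitor of CDK4, were not called in either zone and had fold changes below 0 in both. CDKN1B had 67.2, 76.2 and 65.7 CPM in inner P3 cells, against 149, 91.9 and 88.6 CPM in inner tissue (log2 fold change −0.66 ± 0.18, edgeR adjusted p = 0.0085). CDKN2C had 20.8 and 19.5 CPM in outer P3 cells, against 27.6, 38.7 and 54.2 CPM in outer tissue (log2 fold change −0.997 ± 0.288, edgeR adjusted p = 0.0154).

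**Figure D4:**
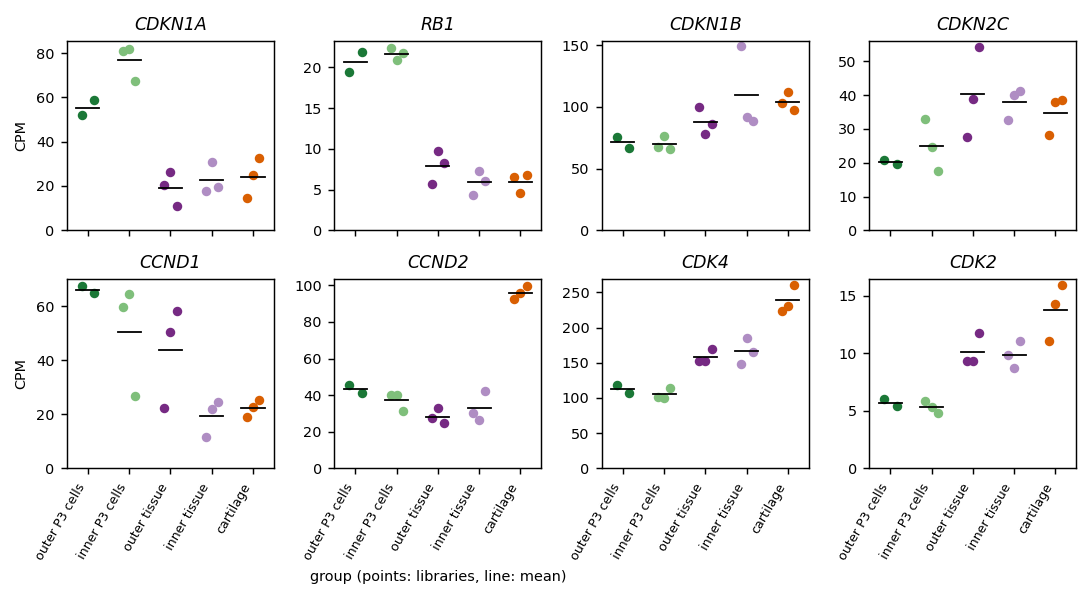
CPM of 4 inhibitors (top) and 4 genes of G1 (bottom) in each library (points) with the group mean (line), on axes that start at 0. CDKN1A and RB1 are higher in P3 cells of both zones than in tissue, CDK4 and CDK2 are lower, and CCND2 is highest in cartilage, at 92.3 to 99.8 CPM.

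The calls of the passaging comparisons rested on single libraries in part. In the inner zone 10 of the 17 calls were kept when any library was left out; the count was 10 without inner tissue 2 and 11 without inner P3 cells 147. CCND1 lost its call in 11 of 14 such fits (edgeR adjusted p 0.00225 to 0.0433). In the outer zone the count of higher genes was 0 without outer P3 cells 148, 1 without outer P3 cells 147 or outer tissue 2 and 4 without outer tissue 6, when CDC20, KIF20A and TPX2 passed and CDKN1A did not. The 2 lower calls, of PCNA and MCM7, were lost without either library of outer P3 cells.

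The difference between the zones in their response to passaging was tested as an interaction. None of the 36 genes was called, nor were any of all 15707 genes (0%) by edgeR, and DESeq2 called none of the 36 and 3 higher and 14 lower of all genes. The smallest edgeR adjusted p of the 36 genes was 0.64. The interaction had an unadjusted edgeR p under 0.05 for 10 of the 36 genes, against 1173 of all 15707. Its log2 value, the outer minus the inner fold change, was below 0 for all 16 mitotic genes (median −1.495) and all 7 replication genes (median −1.03), and its median over all genes was −0.034. That 13 mitotic genes were called in the inner and 0 in the outer zone is therefore not shown to be a difference between zones. The direct comparison of outer with inner P3 cells gave no call among the 36 genes or among all genes (0%) by edgeR. An unadjusted edgeR p under 0.05 was found for 0 of the 36, against 505 of all 15707 genes. DESeq2 called none of the 36, and 8 higher and 2 lower of all genes. The mitotic genes had a median log2 difference of −0.59 between outer and inner P3 cells, with values from −0.96 for AURKB to −0.17 for CDKN3.

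Between the zones in tissue no gene of the set was called. In outer against inner tissue 0 of the 36 genes were called higher, against 0.0318% of all genes, and 0 lower, against 0%. DESeq2 called 0 of the 36 in either direction, while it called 322 of all genes higher and 31 lower, where edgeR called 5 and 0. An unadjusted edgeR p under 0.05 was found for 12 of the 36, against 3181 of all 15707 genes. The log2 fold change was above 0 for 32 of the 36 genes, with a median of 0.79, against 0.009 over all genes, and the smallest adjusted p was 0.117, for MCM6. MCM6 had 35.1, 50.6 and 80.5 CPM in outer tissue 2, 3 and 6, against 28.3, 32.1 and 37.7 CPM in inner tissue. Outer tissue 2 fell within the range of inner tissue, and the log2 fold change was 0.76 ± 0.23.

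Outer tissue 2 lay below the highest inner tissue library for 35 of the 36 genes and below every inner tissue library for 17 of them. The shares of all genes were not computed for these counts, which are therefore not read as particular to the set. CCNE2 was the only 1 of 36 (2.78%) with every outer tissue library above every inner one, at 1.42, 1.88 and 2.07 CPM in outer tissue, against 0.455, 0.841 and 1.27 CPM in inner tissue, while 8.69% of all genes stood above in this way and 8.25% below. Without outer tissue 2, TPX2 (log2 fold change 1.54) and MCM6 (1.00) were called, the only 2 of the 36, while 343 of all 15658 genes tested were called higher and 20 lower in that fit. TPX2 had 6.56, 18.2 and 29.4 CPM in outer tissue 2, 3 and 6, against 8.03, 7.46 and 9.04 CPM in inner tissue. Outer tissue 2 was also the outer library with 10.9 CPM of endothelial markers, against 629 and 242 CPM in libraries 3 and 6, and the part of blood vessel cells in these differences was not tested. By the study, the explants were taken at different positions along the horns and midbody of the meniscus. It reports that 1 outer zone sample clustered with the inner ones, and that the 2 overlapping samples came from nearer the horns. Which libraries these were is not given in the sources used here. Within a zone, position and library cannot be told apart, and the part of position was not tested either.

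Against cartilage, cell cycle genes were higher in meniscus tissue, with more calls in the outer zone. In outer tissue 16 of the 36 genes (44.4%) were called higher than in cartilage, against 8.56% of all genes, and 1 (2.78%) was called lower, against 6.5%. In inner tissue 3 of 36 (8.33%) were called higher, against 4.45% of all genes, and 1 (2.78%) lower, against 4.6%. Both comparisons share the cartilage libraries, and the higher genes of the inner zone, CCNB1, UBE2C and MCM7, and the lower gene, CCND2, were also called in the outer zone. The zones themselves were compared above, with no call. Outer tissue stood above cartilage in every library for 14 genes (38.9%) and below for 2 (5.56%), against 23.9% and 22.3% of all genes. Inner tissue stood above for 20 genes (55.6%) and below for 2 (5.56%), against 21.3% and 20.6% of all genes.

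**Figure D5:**
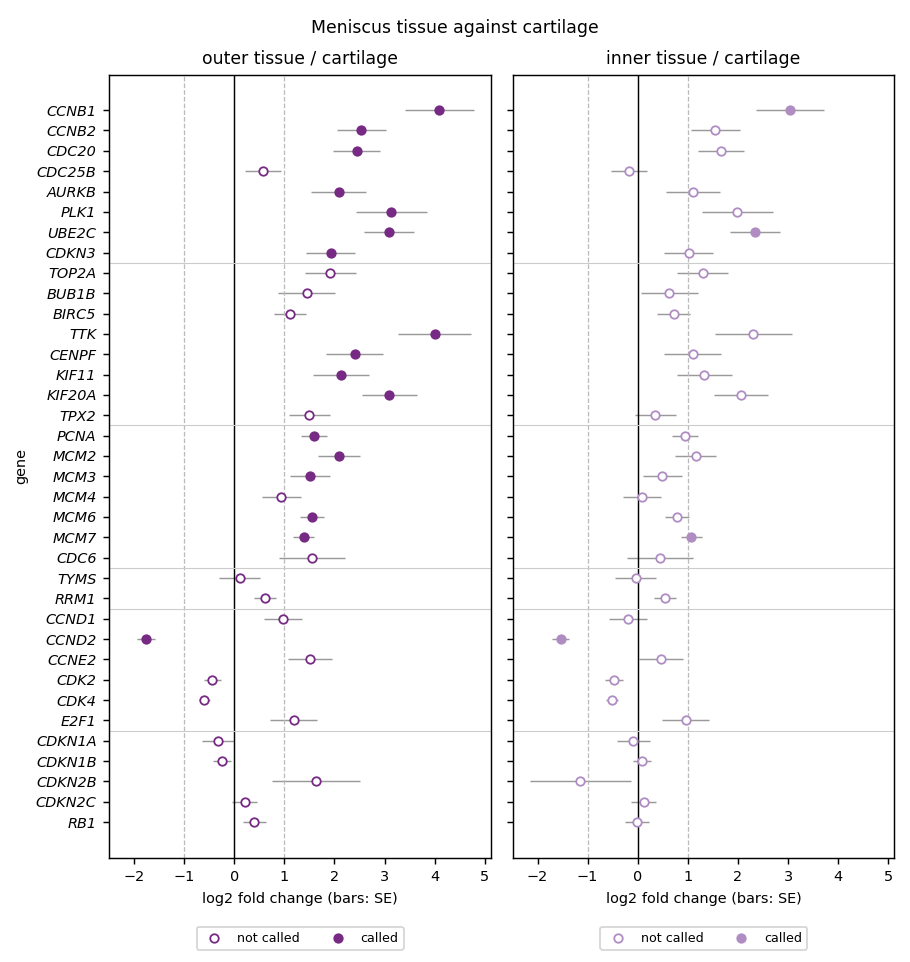
Log2 fold change with its standard error (bars) of the 36 tested genes, for outer tissue over cartilage (left) and inner tissue over cartilage (right). Filled points are called and dashed lines mark a log2 fold change of 1 in size; 16 genes are called higher in outer tissue and 3 in inner tissue, and CCND2 is called lower in both.

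CCNB1 showed the largest difference from cartilage. It had 3.97, 11.4 and 27.6 CPM in outer tissue and 6.47, 7.29 and 6.98 CPM in inner tissue, against 0.286, 0.587 and 1.70 CPM in cartilage. The cartilage levels rested on few reads (7, 13 and 36). All meniscus libraries lay above all cartilage libraries, with log2 fold changes of 4.09 ± 0.68 in the outer zone (edgeR adjusted p = 0.000616) and 3.03 ± 0.68 in the inner zone (edgeR adjusted p = 0.00519). UBE2C had 8.02, 16.6 and 29.7 CPM in outer tissue and 9.37, 10.3 and 12.7 CPM in inner tissue, against 2.04, 0.857 and 3.49 CPM in cartilage (log2 fold changes 3.09 ± 0.50 and 2.34 ± 0.49, edgeR adjusted p = 0.000511 and 0.00371). KIF20A had 4.74, 15.3 and 27.9 CPM in outer tissue and 8.16, 6.62 and 8.80 CPM in inner tissue, against 2.04, 0.857 and 2.74 CPM in cartilage. It was called in the outer zone (log2 fold change 3.10 ± 0.55, edgeR adjusted p = 0.000882) and not in the inner zone (2.07 ± 0.54, edgeR adjusted p = 0.0123), although the libraries did not overlap in either.

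Of the 16 mitotic genes 11 (68.8%) were called higher in outer tissue than in cartilage, against 8.56% of all genes, and 2 (12.5%) in inner tissue, against 4.45%. Their median log2 fold changes were 2.27 and 1.31, against 0.057 and 0.001 over all genes tested. Besides those named, CCNB2, CDC20, PLK1, TTK, CENPF, KIF11, AURKB and CDKN3 were called in the outer zone. CDC25B was the mitotic gene with the smallest difference, at 13.3, 21.2 and 33.7 CPM in outer tissue and 8.81, 20.04 and 11.9 CPM in inner tissue, against 17.2, 15.7 and 13.1 CPM in cartilage. Here all 3 groups overlapped, and the log2 fold changes were 0.57 ± 0.36 and −0.18 ± 0.36.

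Replication genes were also higher in outer tissue than in cartilage, with 5 of 7 (71.4%) called, against 8.56% of all genes. Their median log2 fold change was 1.55, against 0.057 over all genes tested. PCNA had 26.5, 37.5 and 59.9 CPM in outer tissue and 23.4, 27.8 and 28.1 CPM in inner tissue, against 11.2, 16.7 and 13.6 CPM in cartilage (log2 fold changes 1.58 ± 0.26 and 0.94 ± 0.26, edgeR adjusted p = 0.000547 and 0.0153). Every meniscus library lay above every cartilage library. MCM2 and MCM3 were called in the outer zone at log2 fold changes of 2.08 and 1.51, MCM6 at 1.55 and MCM7 at 1.39. In the inner zone MCM7 alone of the 7 (14.3%) was called, against 4.45% of all genes. It had 53.8, 62.0 and 64.4 CPM there, against 30.9, 22.3 and 32.5 CPM in cartilage (log2 fold change 1.07 ± 0.21, edgeR adjusted p = 0.0026).

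CCND2 and the G1 kinases went against the others. CCND2 had 27.5, 32.8 and 24.7 CPM in outer tissue and 30.1, 26.6 and 42.5 CPM in inner tissue, against 92.3, 95.9 and 99.8 CPM in cartilage. The cartilage libraries were more than 2 times as high as any meniscus library, and the log2 fold changes were −1.76 ± 0.17 (edgeR adjusted p = 2.82e-05) and −1.54 ± 0.17 (edgeR adjusted p = 8.84e-05). CDK4 had 153, 152 and 169 CPM in outer tissue and 148, 185 and 165 CPM in inner tissue, against 224, 231 and 261 CPM in cartilage. It too was lower in every meniscus library, by less than 2-fold (log2 fold changes −0.59 ± 0.12 and −0.52 ± 0.12, edgeR adjusted p = 0.00193 and 0.00592). No inhibitor was called in either comparison with cartilage by edgeR or DESeq2. None had an unadjusted edgeR p under 0.05, against 7650 of all 15707 genes for outer tissue and 6465 for inner tissue. RB1 had 6.54, 4.602 and 6.79 CPM in cartilage and CDKN1A 14.8, 24.8 and 32.6 CPM.

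The calls against cartilage also depended on single libraries. The count of higher genes in outer tissue was 10 without outer tissue 3, outer tissue 6 or cartilage 1 and 9 without cartilage 2, while 10 of the 17 calls in both directions were kept when any library was left out. In inner tissue it was 0 without cartilage 2, 1 without cartilage 1 or inner tissue 5, 5 without outer tissue 6 and 7 without outer tissue 2, although both of these outer libraries lie outside this comparison and share only the model with it. The cause of that shift was not tested. AURKB, KIF11, MCM3 and CDKN3 lost their outer zone calls in 9 to 12 of 14 such fits. The sums of endothelial and of leukocyte markers were higher in outer tissue 3 and 6 than in cartilage, as given above. Of the 7 leukocyte markers 5 had a fold change above 0 in outer tissue over cartilage and 2 below 0. The part of these cell types in these calls was not tested.

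Further genes of the same processes were counted from longer lists. Of 67 other mitosis genes 51 (76.1%) were called higher in inner P3 cells than in inner tissue, against 13.6% of all genes, and 0 lower. A further comparison, of outer P3 cells with outer tissue, gave 3 (4.48%) called higher, a share below the 8.36% of all genes (median log2 fold changes 2.07 in the inner and 0.85 in the outer zone). ANLN, which scaffolds the cleavage furrow, was called in the inner zone at 2.37 ± 0.43, and MYBL2, a transcription factor of G2 genes, in the outer zone at 2.07 ± 0.51. Of 45 other replication genes 5 were called higher and 2 (4.44%) lower in inner P3 cells, both shares below the 13.6% and 12.1% of all genes, and 1 (2.22%) higher and 4 (8.89%) lower in outer P3 cells, against 8.36% and 8.3%. The last share was near that of all genes, and the median log2 fold changes were 0.090 and −0.42. POLE, the leading strand polymerase, was higher in inner P3 cells by 2.30 ± 0.46. RFC2, a subunit of the clamp loader, was lower in both zones (−1.06 ± 0.13 in the inner and −1.31 ± 0.16 in the outer zone), as was PRIM1, a primase subunit (−1.05 ± 0.27 and −1.37 ± 0.31).

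Among 17 other genes of nucleotide synthesis 6 (35.3%) were called higher and 1 (5.88%) lower in inner P3 cells, and 3 (17.6%) higher and 1 lower in outer P3 cells, to be read against the same shares of all genes. SHMT2 and MTHFD2, enzymes of mitochondrial folate metabolism, were higher in both zones, SHMT2 by 1.70 ± 0.18 and 1.43 ± 0.19 and MTHFD2 by 1.59 ± 0.21 and 1.62 ± 0.22 on the log2 scale in the inner and outer zone. DTYMK, the thymidylate kinase, was lower in both (log2 fold changes −1.39 ± 0.29 and −1.498 ± 0.341). Of 25 other regulators of the step from G1 to S phase 6 (24%) were called higher and 1 (4%) lower in inner P3 cells, against 13.6% and 12.1% of all genes. In outer P3 cells 2 were called higher, a share of 8%, near the 8.36% of all genes. CDK6, the second kinase of cyclin D, was higher in P3 cells of both zones (3.27 ± 0.41 in the inner and 1.97 ± 0.41 in the outer zone), as was E2F3 (1.92 ± 0.34 and 1.54 ± 0.36), while SKP2, which marks p27 for degradation, was lower in the inner zone (−1.24 ± 0.20).

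Growth arrest genes, like all genes tested, were called in both directions. Of 22 such genes 7 (31.8%) were called higher and 4 (18.2%) lower in inner P3 cells, against 13.6% and 12.1% of all genes, and 6 (27.3%) higher and 2 (9.09%) lower in outer P3 cells, against 8.36% and 8.3%. GADD45A, which responds to DNA damage, was higher by 2.98 ± 0.34 in the inner and 1.40 ± 0.35 in the outer zone, and FOXO3, a transcription factor of quiescence, was lower in both (−1.85 ± 0.23 and −1.94 ± 0.27). Of 11 genes of proliferation drive and growth factor response 1, MYC, was called higher in inner P3 cells (1.33 ± 0.23) and 6 (54.5%) lower. The shares of all genes were 13.6% and 12.1%. In outer P3 cells 5 (45.5%) were called lower by edgeR, against 8.3% of all genes, and 6 by DESeq2. By either tool 0 were called higher, against 8.36% of all genes by edgeR. An unadjusted edgeR p under 0.05 in either direction was found for 7 of the 11, against 7605 of all 15707 genes. IER3, an early response gene, was lower in both zones (−2.17 ± 0.26 in the inner and −2.47 ± 0.31 in the outer zone).

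In tissue, 28 of the 67 other mitosis genes (41.8%) were called higher in outer tissue than in cartilage, against 8.56% of all genes, and 1 lower. In inner tissue 4 (5.97%) were called higher, near the 4.45% of all genes, and 1 lower. The lower gene was CKAP5, a microtubule polymerase, in both zones (−1.13 ± 0.20 in the outer and −1.05 ± 0.20 in the inner zone). Of the 45 other replication genes edgeR called 11 (24.4%) higher and 0 lower in outer tissue, against 8.56% and 6.5% of all genes. DESeq2 called 13 and 0. An unadjusted edgeR p under 0.05 was found there for 24 of the 45, near the share of 7650 of all 15707 genes. In inner tissue 1 was called higher and 1 lower (2.22% each, against 4.45% and 4.6% of all genes). Of the 11 genes of growth factor response 6 (54.5%) were called higher in each zone. The shares of all genes were 8.56% in the outer and 4.45% in the inner zone. Those of the highest mean level among the called ones were IER3, PHLDA1 and FOSL1. PHLDA1, an early response gene, was higher than in cartilage by 2.91 ± 0.31 in outer tissue and 3.21 ± 0.32 in inner tissue.

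CDK1, BUB1 and CCNE1 were measured in rows found by identifier alone. CDK1, the kinase of mitotic entry, had 15.9, 11.4 and 9.25 CPM in inner P3 cells, against 2.54, 3.36 and 3.73 CPM in inner tissue (log2 fold change 1.92 ± 0.44, edgeR adjusted p = 0.00269). In outer P3 cells it had 6.14 and 8.91 CPM, against 2.71, 6.11 and 11.6 CPM in outer tissue, with overlap (log2 fold change 0.14 ± 0.47, edgeR adjusted p = 0.837). BUB1, a kinase of the spindle checkpoint, had 27.7, 21.3 and 18.2 CPM in inner P3 cells, against 1.14, 2.24 and 3.46 CPM in inner tissue (log2 fold change 3.29 ± 0.62, edgeR adjusted p = 0.000682). Both were called higher in outer tissue than in cartilage (log2 fold changes 1.93 ± 0.45 and 2.65 ± 0.66). CCNE1, cyclin E1, had 2.66, 2.33 and 2.34 CPM in inner P3 cells, against 1.27, 1.72 and 1.85 CPM in inner tissue, and 2.74, 3.07 and 2.26 CPM in cartilage, with no call in any comparison of groups.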

How the data were processed

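RNA sequencing counts were available for 14 libraries in 5 groups, which were taken from the sample labels. The deposited values used here are raw counts of reads per gene, for which the authors ran Trim Galore with cutadapt, then STAR on Sscrofa11.1 and then HTSeq, with reads of more than a single location left out. Neither tool versions nor the strand setting of HTSeq is given in the sources used here. The library kit keeps strand, but reads of genes that overlap on opposite strands may therefore be shared between them. The deposited normalized tables, made with DESeq2 size factors, were not used.

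The genes, the lists of further genes and the rule for those named were chosen with earlier results of these data known. A listed gene was found by symbol in the count table. All found genes are accounted for, with full values for those of high level in their role or against its direction. Of each list of further genes, at most 3 called ones of the highest mean level were named. Symbols of the count table were used as deposited, and 22 rows were named through gene identifiers in RefSeq, 3 of them of the 44 listed genes and 19 of further genes and markers.

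Counts were scaled by TMM and tested with the quasi-likelihood test of edgeR 4.0.16 in R 4.3.3. A single model held a mean for each of the 5 groups over all 14 libraries, and p-values were Benjamini-Hochberg adjusted across the 15707 genes with at least 10 reads. Of 25880 genes 7608 had 0 reads. Genes were called at thresholds of 0.01 for the adjusted p and 1 for the absolute log2 fold change, as in the study's methods. Standard errors are the absolute fold change over the root of F. Levels are CPM from TMM-scaled library sizes, and depth ran from 24440213 to 43304412 reads. The procedure was also run on simulated data, with changes planted only in genes with a mean of at least 1 CPM. The outcome is not used here and does not cover genes of lower level. Alternatives were median of ratios size factors, DESeq2 1.42.0, glmTreat against 2-fold, other filters on low counts, fits to the compared libraries only, leaving out each library and a replicate block. Promoters were read from the RefSeq genome of Sscrofa11.1 at the start site shared by most transcripts of a gene.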

Additional observations from a re-analysis of the deposited data

How the results depend on the processing

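Of 42 calls of the listed genes over the comparisons, 8 were kept under every alternative run, namely CDC20, PLK1, TTK, CENPF, KIF20A, TPX2 and RB1 in inner P3 cells over inner tissue and CCND2 in outer tissue over cartilage. DESeq2, median of ratios size factors and both other filters kept all 42, the libraries of the comparison alone kept 26 and glmTreat kept 11. No fold change turned its direction. With glmTreat, 7 genes were called higher in inner P3 cells over inner tissue, 0 higher and 0 lower in outer P3 cells over outer tissue, 0 higher and 0 lower in inner tissue over cartilage and 3 higher in outer tissue over cartilage. With only the libraries of the comparison, 0 genes were called higher and 0 lower in outer P3 cells over outer tissue and 5 higher in outer tissue over cartilage. DESeq2 called 7 higher in inner tissue over cartilage, where edgeR called 3. The cause of these differences was not tested.

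Leaving out 1 library at a time gave 10 to 17 genes called higher in inner P3 cells over inner tissue, 0 to 4 higher and 0 to 3 lower in outer P3 cells over outer tissue, 0 to 2 higher in outer tissue over inner tissue, 0 to 7 higher in inner tissue over cartilage and 9 to 22 higher in outer tissue over cartilage. Where this left 1 library of outer P3 cells, the lone library is assumed to vary like the other groups.

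With the replicate block, fitted on tissue libraries for comparisons of tissue, 0 genes were called higher in inner tissue over cartilage and 2 in outer tissue over cartilage, and 4 of the 21 calls against cartilage were kept. The block called 0 of the listed genes in outer over inner tissue and in outer over inner P3 cells. Of all genes it called 3 higher and 0 lower in outer over inner tissue and 63 higher and 37 lower in outer over inner P3 cells. For the P3 cells both fits without it, on all libraries and on these 5 alone, called 0 of all genes, and genes with an unadjusted p under 0.05 were 2215 with the block, 505 without it and 1111 without it on the 5 libraries. Libraries of the same number share 2 pairs per comparison, and no source says that a number marks an animal or meniscus. Cartilage 1, inner tissue 5, outer tissue 6 and inner P3 cells 149 had no library of the same number in these fits. Their own block took them up, so that the blocked contrasts rest on the 2 pairs. Pairing and the smaller number of libraries therefore cannot be told apart in the changed calls. After removal of group means, same-numbered outer and inner libraries correlated at 0.336 and 0.164 in tissue and 0.220 and 0.268 in P3 cells. Outer and inner tissue libraries of different numbers correlated at −0.262 to 0.181, which reaches above the lower of the same-numbered values. With 2 outer P3 libraries the deviations mirror each other, so that the P3 values cannot decide whether equal numbers belong together. Same-numbered meniscus and cartilage libraries correlated at −0.121 to 0.00206. No paired analysis was possible for P3 cells over tissue because these groups share no numbers.

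Depth limits CDKN2B and CDC6, with 388 and 408 reads over all libraries, and CCNB1 in cartilage, with 7, 13 and 36 reads. Outer P3 cells had 2 libraries, and passaging coincides with another way of RNA extraction.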
